A study of Mus musculus with 6 samples.

Results

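The matrix metalloproteinases (Mmp genes), the ADAMTS proteases (Adamts genes) and the tissue inhibitors of metalloproteinases (Timp genes) were taken from a table of 21958 mouse genes by their symbols alone. The symbols gave 46 genes, 23 Mmp, 19 Adamts and 4 Timp genes. They were measured by RNA sequencing of whole tumors grown from MC38, a mouse colon carcinoma cell line, under the flank skin of C57BL/6J mice, all male, wild-type and 6 to 8 weeks old. In 1 group Mn-N/C, a nanozyme that carries single manganese atoms on nitrogen-doped carbon and acts like a peroxidase, was injected into the palpable tumor at 70 mg/kg in 50 µL every 3 days. In the vehicle group saline was injected in the same volume and rhythm, and tumors of both groups were collected at 800 to 1000 mm3. Each group had 3 libraries, Mn-N/C replicates 1 to 3 and vehicle replicates 1 to 3. Neither the labels nor the methods say whether each library came from its own animal, so every p-value reflects the scatter of these libraries, which may be technical.

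Matrix metalloproteinases are zinc enzymes that cut collagens, gelatin, elastin and other proteins of the extracellular matrix, and most are made as inactive proenzymes. ADAMTS proteases are secreted relatives with thrombospondin repeats, which trim procollagens, cut proteoglycans such as versican and aggrecan, or process other matrix proteins. TIMPs bind the active site of metalloproteinases and block it. In tumors much of this set is made by fibroblasts and macrophages as well as by the cancer cells, and transcript levels do not tell how much enzyme is active.

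Of the 46 genes, 41 had at least 1 read in a library, 19 Mmp, 18 Adamts and 4 Timp genes. Mmp1b, Mmp7 (matrilysin), Mmp20 (the enamel protease), Mmp21 and Adamts13 (which cuts von Willebrand factor) had no read in any of the 6 libraries. As a floor, 3 counts were taken as an approximate upper limit for an observed count of 0. They correspond to 0.158 to 0.200 CPM (counts scaled to a common library size). edgeR's default filter on low counts kept 31 of the 46 for testing, 15 Mmp, 13 Adamts and 3 Timp genes. The other 10 with reads were Mmp1a, Mmp16, Mmp24, Mmp27, Adamts3, Adamts17, Adamts18, Adamts19, Adamts20 and Timp4, with 1 to 29 reads each summed over all libraries. Among them Adamts3, a procollagen protease, had 2, 5 and 4 counts in Mn-N/C tumors, against 1 count in each vehicle tumor. Mmp27 had 3, 2 and 3 counts in Mn-N/C tumors, against 7, 1 and 4 in vehicle tumors. These 10 genes were tested only in the edgeR fit without the filter, as an alternative, and 0 reached an unadjusted p of 0.05 there. The smallest p from edgeR was 0.0919, of Adamts18.

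Of the 23 Mmp genes, 10 lie side by side on chromosome 9, from 7272514 to 7699586 in the coordinates of the deposited table, with no other listed gene between them. They are Mmp13, Mmp12, Mmp1b, Mmp3, Mmp1a, Mmp10, Mmp8, Mmp27, Mmp20 and Mmp7. Promoters of collagenase and stromelysin genes of this cluster are known for a binding site of AP-1, the Fos and Jun transcription factors, close to a TATA box, and the upstream sequences are shown because they set part of the cluster apart from the other members. In the mouse RefSeq promoter windows (build GRCm38.p6, 250 bases before to 50 bases after a gene's start), 32 of the 46 members were found, and the letters TGACTCA or TGAGTCA, which are each other's reverse complement, were searched. They stood in the windows of 7 of the 10 cluster genes (Mmp13, Mmp12, Mmp1b, Mmp3, Mmp1a, Mmp10 and Mmp7) and of 0 of the 8 other matched Mmp, 0 of the 10 matched Adamts and 0 of the 4 Timp genes. Of all 32851 promoter windows, 5.20% held them. That share is per window, while a gene was counted if any of its windows held the letters. Mmp12 and Mmp7 each had a further window without them, for Mmp12 that of its first RefSeq start. The 100 bases before the start are printed 5′ to 3′ on the strand of the gene, with the AP-1 letters and the TATA letters (TATAAA, or TTTATA on the other strand) in capitals. Mmp13 is at chr9:7272414-7272513, Mmp3 at chr9:7445722-7445821, Mmp10 at chr9:7502242-7502341 and the second RefSeq start of Mmp12 at chr9:7347274-7347373, all on the plus strand, and Mmp28 at chr11:83463041-83463140 on the minus strand is given as a member outside the cluster that holds neither set of letters.
Mmp13: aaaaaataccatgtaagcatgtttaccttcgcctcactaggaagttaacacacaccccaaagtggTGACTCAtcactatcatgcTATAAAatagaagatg
Mmp3: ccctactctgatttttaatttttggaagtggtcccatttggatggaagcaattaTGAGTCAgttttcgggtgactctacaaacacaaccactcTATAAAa
Mmp10: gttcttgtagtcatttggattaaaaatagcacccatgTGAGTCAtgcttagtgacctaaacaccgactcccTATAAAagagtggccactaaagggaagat
Mmp12: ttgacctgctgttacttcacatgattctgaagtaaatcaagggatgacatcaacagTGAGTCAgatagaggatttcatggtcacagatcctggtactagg
Mmp28: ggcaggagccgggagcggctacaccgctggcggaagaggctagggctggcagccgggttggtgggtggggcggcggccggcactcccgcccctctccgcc
The AP-1 letters began 35 bases before the start in Mmp13, 46 in Mmp3, 63 in Mmp10 and 44 in Mmp12. In the same 100 bases the TATA letters stood in 7 of the 10 cluster genes, against 5.56% of all promoters. Mmp1a, Mmp1b and Mmp7, which hold both sets of letters, had 1, 0 and 0 reads in all libraries together. A match of letters is a description of the window and does not show that a factor was bound.

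Levels were compared between genes in FPKM, the authors' normalised value, in which each count is divided by gene length and by the library total. Mmp2 (gelatinase A) was the highest protease, with 185, 191 and 186 FPKM in Mn-N/C tumors, against 217, 196 and 206 FPKM in vehicle tumors. Mmp14, the membrane protease that activates pro-Mmp2, averaged 57.5 FPKM over the 6 libraries, and Mmp9 (gelatinase B) averaged 55.6 FPKM. The libraries of Mmp14 and Mmp9 overlapped widely, so that their order was within the spread, while both were below every library of Mmp2. Mmp11 (stromelysin-3) followed at 17.8 FPKM, Mmp12 (macrophage elastase) at 9.75, Mmp13 (collagenase-3) at 8.12 and Mmp3 (stromelysin-1) at 6.20. Among the inhibitors Timp2 averaged 256 FPKM, above every protease, and Timp1 130.0 FPKM, above every protease but Mmp2, with Timp3 at 18.5 and Timp4 at 0.023. The highest ADAMTS was Adamts14, a procollagen N-proteinase, at 14.8 FPKM, ahead of Adamts4 at 8.33, Adamts1 at 7.55, Adamts7 at 5.86 and Adamts8 at 5.73.

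**Figure D1:**
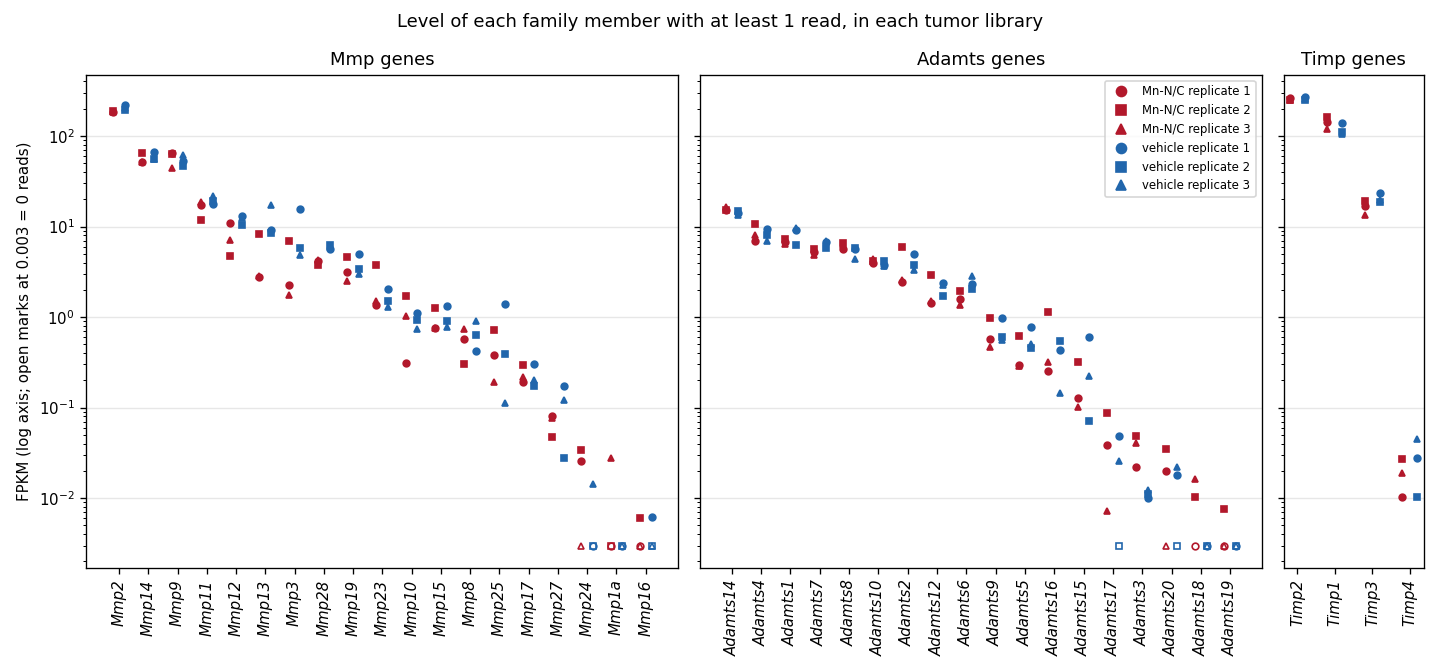
Level of each of the 41 members with at least 1 read, in FPKM on a log axis, with 1 mark per library, Mn-N/C in red left of vehicle in blue, and open marks for libraries with 0 reads. Timp2, Mmp2 and Timp1 stood above 100 FPKM in every library, and Timp4 averaged 0.023 FPKM.

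For the comparison of the groups, edgeR's quasi-likelihood test was run on the counts of 12800 genes, and CPM are scaled by TMM. The totals were 16647865 to 18961134 counts in Mn-N/C and 14988588 to 18439017 in vehicle libraries. No pair of replicates of a group agreed within sampling noise (chi-square per degree of freedom 6.49 to 26.7). Longer genes tended to have lower and GC-rich genes higher fold changes (rank correlation -0.26 for length and 0.49 for GC, both over genes, which do not count as replicates). Of markers that define colonic epithelium, Cdx1 and Cdx2 had no read in any library, Epcam, Krt8, Krt18, Krt20 and Vil1 had 0 to 18 counts per library, and Cdh1 had 271 to 753. In whole tumors, fewer cells of a type and less RNA per cell cannot be told apart.

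With edgeR, 0 of the 31 tested members passed a Benjamini-Hochberg adjusted p of 0.05, and 0 of all 12800 genes did (0%). The log2 fold change (Mn-N/C over vehicle) was below 0 in 21 of the 31, against 49.8% of all genes, and its median over the members was -0.11, beside 0.000835 over all genes. This count depended on single libraries. It was 14 without vehicle replicate 1 (48.85% of all genes in that fit) and 15 without Mn-N/C replicate 3 (48.86%). Without Mn-N/C replicate 2 it was 24 (52.13%). With the gene length trend removed it was 17, against 43.34% of all genes. With the GC trend removed it was 22, against 45.29% of all genes. At an unadjusted p under 0.05, 5 members were lower in Mn-N/C tumors (Mmp12, Mmp13, Mmp28, Adamts6 and Adamts7), against 11.1% of all genes lower, and 0 were higher, against 9.82% of all genes. DESeq2, run as the other tool, called 1 member at an adjusted p of 0.05, Mmp28. It called 8.91% of the 8828 genes for which it gave an adjusted p. Some of the 31 tested members, among them Mmp3 and Adamts5, had no adjusted p from DESeq2. In 5 members every Mn-N/C library was below every vehicle library (Mmp2, Mmp13, Mmp28, Adamts6 and Adamts7), against 12.1% of all genes, and in 1, Adamts14, every Mn-N/C library was above, against 14.2%. The share of members lower at the unadjusted threshold was thus 5 of 31, near the background. On simulated counts the test called 19 of 50 genes changed 1.5-fold and 34 of 50 changed 2-fold, so changes of that size could be missed. The changed genes were drawn from tested genes at large, not from the members, and no length or GC trend was simulated. The simulation therefore does not give the size of change that could be missed in the members.

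**Figure D2:**
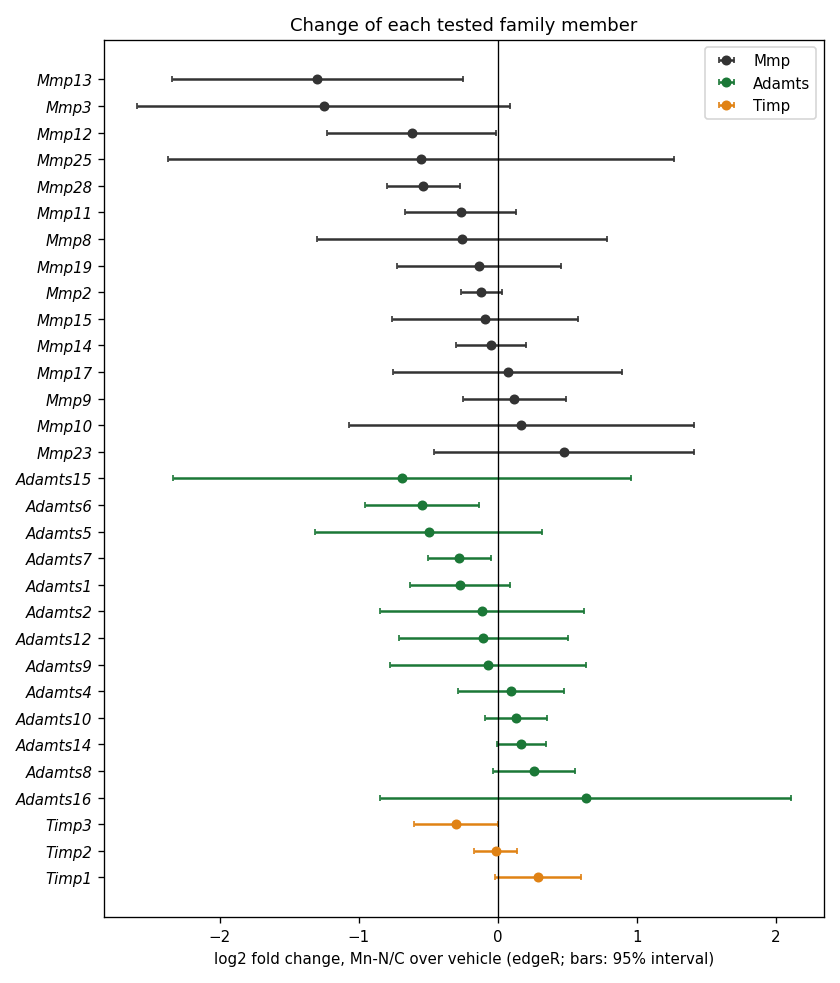
Log2 fold change, Mn-N/C over vehicle, of the 31 tested members by family, with the 95% interval from edgeR. Most intervals include 0. Those of Mmp13, Mmp12, Mmp28, Adamts6 and Adamts7 lie below 0, and 0 lie above.

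Among the collagenases and gelatinases, the largest difference was in Mmp13, which cuts fibrillar collagens. Mmp13 (ENSMUSG00000050578) had 7.47, 22.2 and 7.59 CPM in Mn-N/C tumors, against 23.7, 22.6 and 46.1 CPM in vehicle tumors. The groups met at their edges, since Mn-N/C replicate 2 stood just under vehicle replicate 2 while the other Mn-N/C libraries were far lower. Its log2 fold change was -1.30 (standard error 0.457, adjusted p = 0.194 from edgeR), and it ran between -0.88 without vehicle replicate 3 and -2.03 without Mn-N/C replicate 2. Mmp8, the neutrophil collagenase, was low, with means of 1.31 ± 0.538 CPM in Mn-N/C and 1.58 ± 0.596 CPM in vehicle tumors (SD, n = 3). Mmp2 had 635, 639 and 629.7 CPM in Mn-N/C tumors, against 716, 662 and 693 CPM in vehicle tumors. The groups did not overlap, but the difference was small, at -0.12 on the log2 scale (standard error 0.0644, adjusted p = 0.311 from edgeR). With each library's GC trend removed it was -0.21 (unadjusted p = 0.0293 and adjusted p = 0.268 from edgeR). Mmp9 had 237, 222 and 156 CPM in Mn-N/C tumors, against 185, 165 and 216 CPM in vehicle tumors. The lowest and the highest library both belonged to Mn-N/C, and the log2 fold change was 0.12 (standard error 0.16), with 0.002 without Mn-N/C replicate 1, 0.28 without Mn-N/C replicate 3 and 0.02 with the GC trend removed.

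Among the stromelysins, Mmp3, which cuts proteoglycans and activates other proenzymes, had 4.17, 12.3 and 3.15 CPM in Mn-N/C tumors, against 27.8, 10.4 and 8.66 CPM in vehicle tumors. The groups overlapped through Mn-N/C replicate 2, and vehicle replicate 1 stood above all others. On the log2 scale the difference was -1.25 (standard error 0.586, adjusted p = 0.261 from edgeR), -2.10 without Mn-N/C replicate 2 and -0.54 without vehicle replicate 1. Mmp10 (stromelysin-2) ranged from 0.551 to 2.94 CPM in Mn-N/C and from 1.27 to 1.86 CPM in vehicle tumors. Mmp11, known from the stroma around carcinomas, had 49.4, 32.7 and 52.1 CPM in Mn-N/C tumors, against 48.1, 52.9 and 60.7 CPM in vehicle tumors. Here Mn-N/C replicate 2 was the low library and the others lay between 48.1 and 60.7 CPM (log2 fold change -0.27, adjusted p = 0.399 from edgeR, and -0.09 without that library).

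Mmp12, the elastase of macrophages, had 81.2, 34.3 and 51.4 CPM in Mn-N/C tumors, against 92.6, 75.0 and 88.6 CPM in vehicle tumors. Of the Mn-N/C libraries only replicate 1 reached the vehicle range. Its log2 fold change was -0.62 (standard error 0.265, adjusted p = 0.231 from edgeR), and it was -0.29 with the GC trend removed. Without Mn-N/C replicate 1 it was -0.996, and without Mn-N/C replicate 2 it was -0.37. The summed level of 8 macrophage markers was 1051, 1240 and 1262 CPM in Mn-N/C tumors, against 1163, 1106 and 926 CPM in vehicle tumors, and its part in Mmp12 was not tested.

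Mmp28 (epilysin, ENSMUSG00000020682), a secreted metalloproteinase known from epithelia and macrophages, had the smallest p of the 31 members. It had 16.3, 14.4 and 16.5 CPM in Mn-N/C tumors, against 21.2, 24.3 and 23.0 CPM in vehicle tumors. Each group lay within a narrow band and the bands were apart, with means of 15.7 ± 1.15 CPM in Mn-N/C and 22.8 ± 1.54 CPM in vehicle tumors (SD, n = 3). The log2 fold change was -0.54 (standard error 0.115, unadjusted p = 0.00153 and adjusted p = 0.182 from edgeR), and the adjusted p from DESeq2 was 0.0170. The unadjusted p of Mmp28 stayed under 0.05 with every alternative and every left-out library, where the log2 fold change ran from -0.64 to -0.46 and the adjusted p from 0.0170 to 0.522. On the other strand Mmp28 overlaps the listed gene 1700020L24Rik, which had 18 to 36 counts per library, and whether counting used strand is not given in the sources used here. Mmp19 and Mmp23, other members outside the main subfamilies, had log2 fold changes of -0.13 and 0.48, with overlapping groups.

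Of the membrane-bound proteases Mmp14 was by far the highest, with 315, 387 and 306 CPM in Mn-N/C tumors, against 387, 329 and 329 CPM in vehicle tumors. The 2 highest values belonged to Mn-N/C replicate 2 and vehicle replicate 1, and the groups overlapped (log2 fold change -0.05, with 0.02 once the gene length trend was removed). Mmp15, Mmp17 and Mmp25 were between 0.599 and 7.33 CPM, and Mmp16 and Mmp24 had 2 and 6 reads in all. The widest member was Mmp25, which is anchored by a lipid and known from leukocytes. Its lowest and highest library were both vehicle tumors, at 0.599 and 7.33 CPM.

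**Figure D3:**
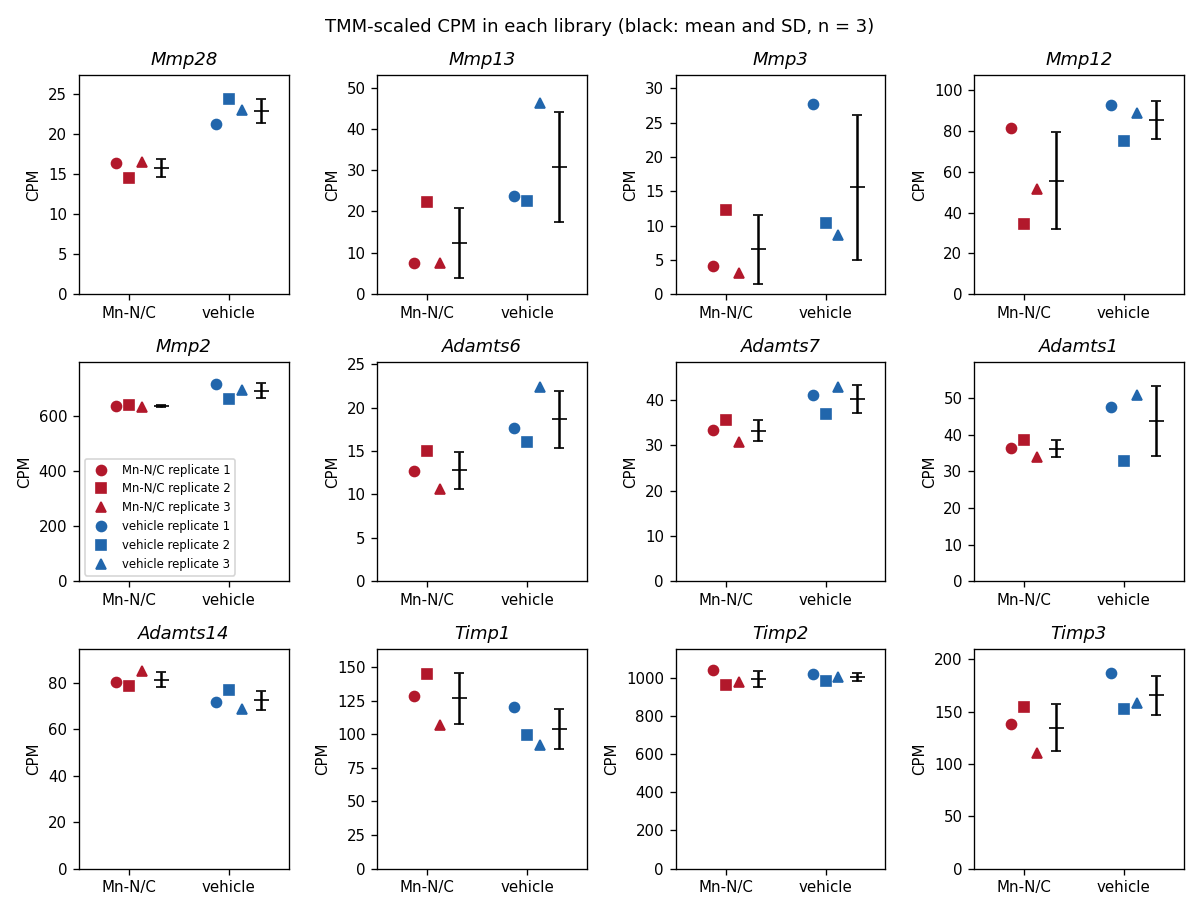
TMM-scaled CPM of 12 members in each library, Mn-N/C left of vehicle, with the mean and SD (n = 3) in black and each axis starting at 0. Mmp28, Mmp2, Adamts6 and Adamts7 had every Mn-N/C library below every vehicle library, Adamts14 the opposite, and in Mmp13 the groups nearly touched.

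Of the ADAMTS proteases that cut proteoglycans, Adamts1 had 36.4, 38.5 and 33.8 CPM in Mn-N/C tumors, against 47.6, 32.8 and 50.9 CPM in vehicle tumors. Vehicle replicate 2 lay below all Mn-N/C libraries, and the other vehicle libraries lay above them. The log2 fold change was -0.27 (adjusted p = 0.349 from edgeR). It was -0.43 without vehicle replicate 2, with an adjusted p of 0.0494 from edgeR (up to 0.735 over the alternatives), and in that fit 802 of all genes passed. Without vehicle replicate 3 it was -0.145. Adamts4 (aggrecanase-1) had 33.8, 51.1 and 39.1 CPM in Mn-N/C tumors, against 43.8, 39.3 and 33.1 CPM in vehicle tumors. The groups covered nearly the same range (log2 fold change 0.09), and without Mn-N/C replicate 2 the sign turned, at -0.09. Adamts8 had 26.8, 30.5 and 29.2 CPM in Mn-N/C tumors, against 25.2, 26.8 and 20.2 CPM in vehicle tumors. Its groups overlapped at 26.8 CPM, with a log2 fold change of 0.26 (adjusted p = 0.285 from edgeR), or 0.15 without vehicle replicate 3 and 0.165 with the GC trend removed. Adamts5 (aggrecanase-2) was lower in level, with 3.25, 6.72 and 3.09 CPM in Mn-N/C tumors, against 8.17, 4.90 and 5.39 CPM in vehicle tumors. Only Mn-N/C replicate 2 reached the vehicle range (log2 fold change -0.50, adjusted p = 0.448 from edgeR), and the value was -0.96 without that library and -0.24 without vehicle replicate 1, and -0.32 with the GC trend removed. Adamts9 and Adamts15, the other tested members of the group, had log2 fold changes of -0.07 and -0.69 with overlapping libraries.

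Of the procollagen N-proteinases, which remove the amino-terminal propeptide of fibrillar collagens, Adamts14 had 80.1, 78.7 and 84.9 CPM in Mn-N/C tumors, against 71.4, 76.9 and 68.6 CPM in vehicle tumors. It was the single member whose Mn-N/C libraries were all above the vehicle libraries, by a log2 fold change of 0.17 and with an adjusted p of 0.252 from edgeR (standard error 0.0766). With the GC trend removed the value was 0.06. Adamts2 of the same group ranged from 23.3 to 54.7 CPM in Mn-N/C and from 30.8 to 44.9 CPM in vehicle tumors, with Mn-N/C replicate 2 the highest of the 6 libraries. Adamts7 and Adamts12 are known to cut the cartilage oligomeric matrix protein. Adamts7 had 33.5, 35.5 and 30.8 CPM in Mn-N/C tumors, against 41.1, 36.8 and 42.9 CPM in vehicle tumors. The groups did not overlap, with a gap between 35.5 and 36.8 CPM, and the log2 fold change was -0.28 (standard error 0.0989, adjusted p = 0.196 from edgeR). Adamts7 overlaps Tbc1d2b on the other strand, at 1346 to 1834 counts per library. Adamts12 had a log2 fold change of -0.11 (adjusted p = 0.856 from edgeR) and Mn-N/C replicate 2 as its highest library.

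Adamts6, tied to fibrillin and cell junctions, had 12.7, 15.0 and 10.6 CPM in Mn-N/C tumors, against 17.6, 16.0 and 22.4 CPM in vehicle tumors. The groups did not overlap, and the log2 fold change was -0.55 (standard error 0.177, adjusted p = 0.182 from edgeR). It was smaller, at -0.32, with the GC trend removed. Adamts10, also tied to fibrillin, was even across libraries at 30.3 to 36.7 CPM. Adamts16 ranged from 1.78 to 7.82 CPM in Mn-N/C and from 0.999 to 3.73 CPM in vehicle tumors, again with Mn-N/C replicate 2 on top.

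Of the inhibitors, none of the 3 tested was called in edgeR, DESeq2 or limma, and the unadjusted p of Timp1 and Timp3 lay on either side of 0.05 depending on the fit. Timp1, a secreted inhibitor that binds pro-Mmp9, had 129, 145 and 107 CPM in Mn-N/C tumors, against 121, 99.1 and 92.1 CPM in vehicle tumors. The groups overlapped between 107 and 121 CPM, and the difference on the log2 scale was 0.29 (standard error 0.135, adjusted p = 0.265 from edgeR), running from 0.18 without Mn-N/C replicate 2 to 0.41 without vehicle replicate 1. It was 0.165 with the gene length trend removed. The unadjusted p was 0.0661 in the edgeR fit as reported and 0.0463 in DESeq2. Timp3, which is held in the matrix and also inhibits ADAMTS proteases, had 138, 155 and 110.3 CPM in Mn-N/C tumors, against 187, 152 and 158 CPM in vehicle tumors. Mn-N/C replicate 2 alone reached into the vehicle range, and the log2 fold change was -0.30 (standard error 0.133, adjusted p = 0.241 from edgeR), with -0.18 without Mn-N/C replicate 3 and -0.20 with the gene length trend removed. The unadjusted p was 0.0515 in the edgeR fit as reported, 0.0286 in DESeq2 and 0.0132 in edgeR without Mn-N/C replicate 2, and it was also under 0.05 with RLE scaling, without the filter, with limma on both scales and with the replicate block. Timp2, which with Mmp14 brings pro-Mmp2 to the cell surface for activation, had 1040.2, 960.4 and 975 CPM in Mn-N/C tumors, against 1021, 981 and 1004 CPM in vehicle tumors. The log2 fold change was -0.01 with a 95% interval from -0.17 to 0.14. Timp4 had 1, 3 and 2 counts in Mn-N/C tumors, against 3, 1 and 4 counts in vehicle tumors. It was below the filter and had an unadjusted p of 0.622 in the edgeR fit without it. Each Timp gene overlaps a listed gene, Timp1, Timp3 and Timp4 a synapsin gene on the other strand (Syn1 at 87 to 175, Syn3 at 1 to 6 and Syn2 at 0 to 5 counts per library) and Timp2 the gene Cep295nl on the same strand at 29 to 69 counts.

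Summed over a family, Mmp transcripts came to 347, 367 and 322 FPKM in Mn-N/C tumors, against 410, 355 and 392 FPKM in vehicle tumors, with overlap between the groups. The Adamts sums averaged 55.7 ± 7.07 FPKM in Mn-N/C and 56.6 ± 3.90 FPKM in vehicle tumors (SD, n = 3). The Timp sums averaged 411 ± 25.6 FPKM in Mn-N/C and 398 ± 28.1 FPKM in vehicle tumors. The Timp sum divided by the Mmp sum was 1.21, 1.17 and 1.19 in Mn-N/C tumors, against 1.05, 1.07 and 0.974 in vehicle tumors. This ratio did not overlap between the groups, and as a score over chosen genes it was not tested. The trends of fold change with gene length and GC content were not removed from these sums. Mmp2, Mmp14 and Mmp9 made up 87.2%, 86.8% and 87.1% of the Mmp sum in Mn-N/C tumors, against 82.2%, 83.7% and 82.3% in vehicle tumors. These 3 genes summed to 300.6 ± 19.2 FPKM in Mn-N/C and 319 ± 20.0 FPKM in vehicle tumors (SD, n = 3), and the other Mmp genes to 44.8 ± 3.38 FPKM in Mn-N/C and 66.7 ± 7.94 FPKM in vehicle tumors.

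**Figure D4:**
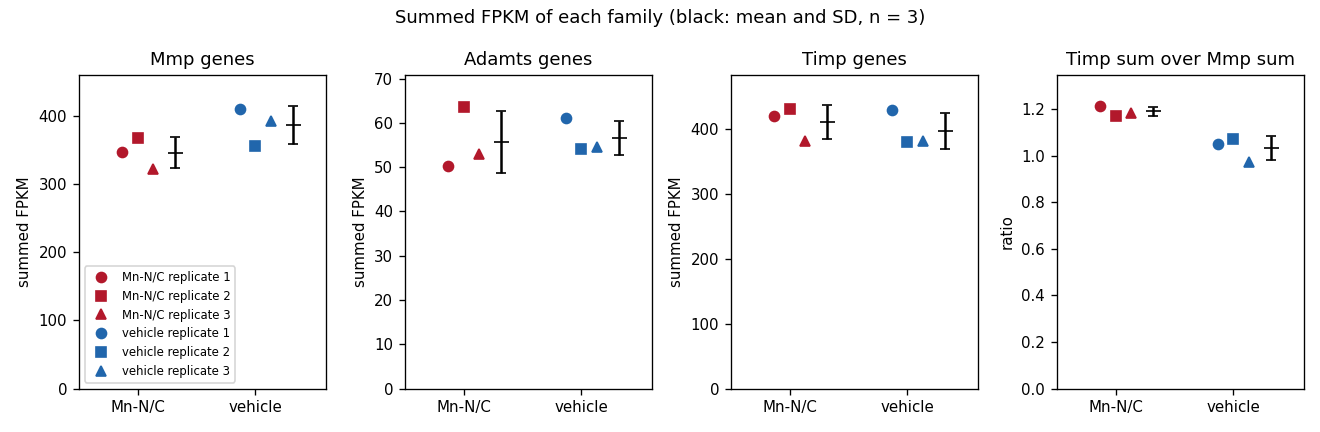
Summed FPKM of the Mmp, Adamts and Timp genes and the ratio of the Timp to the Mmp sum, 1 mark per library, Mn-N/C left of vehicle, with the mean and SD (n = 3) in black and axes from 0. The 3 sums overlap between the groups, and the ratio is 1.17 to 1.21 in Mn-N/C and 0.974 to 1.07 in vehicle tumors.

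By family, 4 of the 15 tested Mmp genes had a log2 fold change above 0 and 11 below, with a median of -0.13. Of the 13 Adamts genes 5 were above and 8 below (median -0.11), and of the 3 Timp genes 1 was above and 2 below (median -0.01). These medians were small beside their change on leaving out 1 library, since the Mmp median was -0.37 without Mn-N/C replicate 2 and 0.03 without vehicle replicate 1, and the Adamts median was -0.36 and 0.10 in the same fits. Within the cluster on chromosome 9, 1 of the 5 tested genes (Mmp10) was above and 4 below, with a median of -0.62, the value of Mmp12. In the 10 tested Mmp genes elsewhere 3 were above and 7 below, with a median of -0.10. With the GC trend removed, Mmp3, Mmp13 and Mmp12 of the cluster were at -1.16, -0.997 and -0.29. In the same fit Mmp2, Mmp9, Mmp11, Mmp14 and Mmp28 elsewhere were at -0.21, 0.02, -0.36, -0.13 and -0.64. The difference between cluster and elsewhere was not tested.

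Many members were high or low together in single libraries. Within Mn-N/C, replicate 2 had the highest CPM in 23 of the 31 tested members (74.2%), against 33.3% of all tested genes. Within vehicle, replicate 1 was highest in 19 of the 31 (61.3%), against 24.6% of all genes. Both held in 17 members (54.8%), against 13.3% of all genes. In Adamts genes Mn-N/C replicate 2 was highest in 11 of 13. The coefficient of variation within a group had a median of 30.4% in Mn-N/C and 22.8% in vehicle tumors for Mmp genes, of 21.5% in Mn-N/C and 17.7% in vehicle tumors for Adamts genes, and of 8.47% in Mn-N/C and 11.3% in vehicle tumors for all genes. Mmp2, Mmp28, Adamts7, Adamts10, Adamts14 and Timp2 were exceptions, below 8% in both groups.

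By summed CPM, the same 2 libraries were the highest of their groups in 7 of 12 marker lists. These were fibroblast, endothelial, adipocyte, neutrophil, mast cell, T cell and colon epithelial markers. For single genes, both were highest in 13.3% of all tested genes. A sum follows its highest genes. In Mn-N/C replicate 2, Cdh1 held 39.5 of the 40.8 CPM of the colon epithelial list. The summed level of 8 fibroblast markers was 2847, 6170 and 2646 CPM in Mn-N/C tumors, against 4642, 2986 and 3414 CPM in vehicle tumors. Col1a1 and Col3a1 made up most of this sum, with 2818 and 2806 CPM in Mn-N/C replicate 2. Within Mn-N/C, Dcn was lowest in replicate 2 (271, 243 and 326 CPM) and Pdgfra highest (50.7, 64.6 and 43.8 CPM). Pdgfrb, Lum, Thy1 and Fap were also highest in Mn-N/C replicate 2 of their group. Of the 8 fibroblast markers 1 had a log2 fold change above 0 and 7 below, and Dcn and Fap were lower at an unadjusted p under 0.05. Skeletal muscle markers (7 genes) summed to 32.2, 703 and 10.7 CPM in Mn-N/C tumors, against 16.0, 112 and 226 CPM in vehicle tumors, so that vehicle replicate 1 was the lowest of its group. Smooth muscle markers (5 genes) summed to 67.9, 239 and 63.7 CPM in Mn-N/C tumors, against 50.4, 81.7 and 58.6 CPM in vehicle tumors. All 4 that were tested had a log2 fold change above 0 (median 0.94), and Cnn1 (2.89) and Acta2 (1.07) were higher at an unadjusted p under 0.05. Adipocyte markers (6 genes) summed to 17.5, 24.7 and 17.5 CPM in Mn-N/C tumors, against 48.1, 18.4 and 34.4 CPM in vehicle tumors. All 6 had a log2 fold change below 0 (median -1.10), and Cidec and Fabp4 were lower at an unadjusted p under 0.05. None of these lists had a call at an adjusted p of 0.05 in edgeR, and DESeq2 called Dcn of the fibroblast list. Endothelial markers (6 genes) summed to 110, 194 and 135 CPM in Mn-N/C tumors, against 181, 121 and 153 CPM in vehicle tumors. Mast cell markers summed to 4.35 to 14.5 CPM in Mn-N/C and 7.22 to 11.5 CPM in vehicle tumors, and T cell markers to 2.02 to 8.66 CPM in Mn-N/C and 1.53 to 9.24 CPM in vehicle tumors. Neutrophil markers summed to 4.35 to 16.2 CPM in Mn-N/C and 4.39 to 8.97 CPM in vehicle tumors, with Ly6g at 0 or 1 count. The part of these cells in the members' levels was not tested. With Mn-N/C replicate 2 and vehicle replicate 1 both left out, an alternative chosen after seeing the data, 0 members passed the adjusted threshold and the medians were -0.16 for Mmp, -0.26 for Adamts and 0.02 for Timp genes.

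**Figure D5:**
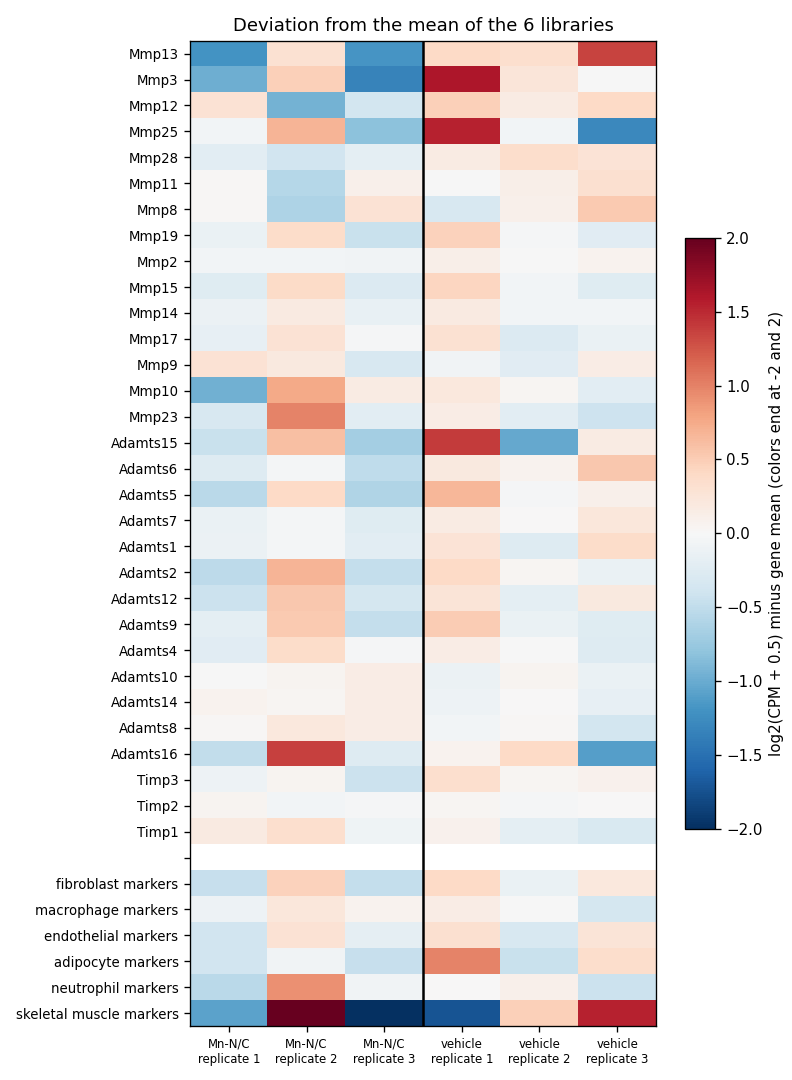
Deviation of each tested member from its mean over the 6 libraries, in log2(CPM + 0.5), with Mn-N/C replicates left of vehicle replicates, and below it the mean deviation of marker lists of 6 host cell types. Red is above and blue below the mean, and Mn-N/C replicate 2 was the highest of its group in 23 and vehicle replicate 1 in 19 of the 31 members.

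Other genes of matrix turnover gave 0 calls in edgeR, with 0 to 2 genes per list and direction at an unadjusted p under 0.05, and DESeq2 called Vcan and Dcn alone. Of 23 listed activators and regulators of proteolysis, 21 were tested, 15 with a log2 fold change above 0 and 6 below (median 0.09), among them Plaur, the urokinase receptor (0.23), Furin, which activates membrane-bound proenzymes (0.20), and Bsg, an inducer of metalloproteinases and the highest of the list (0.20). Of 15 ADAM and astacin genes 12 were tested, 7 above 0 and 5 below, with Adam10 at -0.30, Adam9 at -0.24, Adam19 at 0.28 and the procollagen enhancer Pcolce at 0.21. Of 7 ADAMTS-like genes, which lack the protease domain, 4 were tested, 1 above 0 and 3 below, with Adamtsl3 at -0.24.

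Of 20 listed matrix substrates 16 were tested, 11 above 0 and 5 below. Vcan (versican), cut by several ADAMTS proteases, had 182, 169.6 and 175 CPM in Mn-N/C tumors, against 254, 202 and 344 CPM in vehicle tumors. The groups did not overlap (log2 fold change -0.60, adjusted p = 0.182 from edgeR and 0.0161 from DESeq2). Dcn (decorin) had a log2 fold change of -0.51 (adjusted p = 0.187 from edgeR and 0.0381 from DESeq2). Comp, the substrate of Adamts7 and Adamts12, had 1.29, 20.5 and 0.562 CPM in Mn-N/C tumors, against 2.55, 0.367 and 0.999 CPM in vehicle tumors, so that 1 library decided its log2 fold change of 2.49.

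Of 22 genes of AP-1, ETS and RUNX factors and inducing cytokines 21 were tested, 10 above 0 and 11 below (median -0.13). Fosl1, an AP-1 subunit, had 45.8, 43.9 and 39.6 CPM in Mn-N/C tumors, against 30.6, 39.2 and 27.0 CPM in vehicle tumors. Its groups did not overlap, with the Mn-N/C libraries higher (log2 fold change 0.42, adjusted p = 0.185 from edgeR). The tested cluster genes that hold the AP-1 letters had log2 fold changes of -1.30 (Mmp13), -1.25 (Mmp3), -0.62 (Mmp12) and 0.17 (Mmp10). Fosl1 was named for its small p in the list, and the part of AP-1 in the cluster genes was not tested. Jun, the highest of the list, had a log2 fold change of -0.13, and Runx1 and Ets2 had -0.18 and -0.22.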

How the data were processed

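RNA of whole MC38 tumors was sequenced in 6 libraries, 3 from Mn-N/C-treated and 3 from vehicle-treated tumors. The read counts per gene were deposited by the authors as whole numbers without normalization. The deposited FPKM values follow from these counts by gene length and library total. HISAT2 2.0 and mm10 are named, without a role, in the processing notes of the submitters. How reads were counted, whether by strand and on which annotation, is not given in the sources used here. Gene coordinates are those of the file, whose build is not named. Of the 46 members 5 had the same start and end in the GRCm38 annotation used here (2.29% of all genes), so only promoter sequences carry that build.

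Testing used edgeR 4.0.16 under R 4.3.3 (TMM, filterByExpr defaults, glmQLFit and glmQLFTest, group only), with Benjamini-Hochberg adjustment over the 12800 genes kept and a threshold of 0.05. The totals were 14988588 to 18961134, and floors cover counting error only. The test was tried on simulated counts, where it called 48 of 50 genes changed 4-fold and 14 of 12600 unchanged ones. Values in every library are given for each Timp gene, for the 6 Mmp and 6 Adamts genes with the smallest p and for the 5 of each with the highest FPKM. Of each related list up to 3 genes with the smallest p and the highest one were eligible to be named. Members and lists were chosen with earlier results of these data known.

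The alternatives were an unfiltered fit, RLE scaling, DESeq2 1.42.0 on the genes kept, limma 3.58.1 on log2(FPKM + 1) and on log2(FPKM + 0.1) over genes that reached an FPKM of 1 in 3 or more libraries, a replicate block, the omission of each library in turn, and each library's trend on gene length or GC content (loess, span 0.5; GC known for 12783 genes) taken out.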

Additional observations from a re-analysis of the deposited data

How the results depend on the processing

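No gene and no member was called (0 each) in the edgeR fit as reported, with RLE scaling, without the filter, with limma on either FPKM scale, the replicate block, the gene length trend removed, the GC trend removed, and Mn-N/C replicate 2 and vehicle replicate 1 left out together (0 each). DESeq2 called 787 genes and 1 member (Mmp28, log2 fold change -0.54). The gene length trend removed with the replicate block gave 71 genes and 0 members. Leaving out 1 library gave 0 to 802 genes and 0 to 1 members, the 802 and the 1 (Adamts1) both without vehicle replicate 2. With few members near a threshold, the number lower at an unadjusted p under 0.05 varied between fits. It was 1 without Mn-N/C replicate 3 and 9 without Mn-N/C replicate 2. It was 3 without Mn-N/C replicate 1 or vehicle replicate 1 and 2 without vehicle replicate 3. The share of all genes was taken only in the edgeR fit as reported (11.1% lower and 9.82% higher). Counts of members in the other fits therefore have no background beside them. The number higher, 0 as reported, was 1 with DESeq2, without the filter, with the replicate block, without Mn-N/C replicate 3 and without vehicle replicate 1 (Timp1 each time), 1 in both fits with the gene length trend removed (Adamts14, or Adamts8 with the block) and 2 without vehicle replicate 2 (Adamts8 and Adamts14). Same-numbered libraries deviated with correlations of -0.15, -0.01 and 0.12, so the numbers were not taken to pair samples. The replicate block alone left the calls at 0 and had 7 members lower and 1 higher at an unadjusted p under 0.05.

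Among the tested members given in every library, over these alternatives, signs turned only for Mmp14, Timp2 and Adamts4, all with differences near 0. With the gene length trend removed Mmp14 was at 0.016 and Timp2 at 0.009, and with the replicate block as well at 0.015 and 0.007. Timp2 was at 0.022 without Mn-N/C replicate 2 and vehicle replicate 1. With 1 library left out Mmp14 ran from -0.165 to 0.032, Timp2 from -0.050 to 0.008 and Adamts4 from -0.089 to 0.219. The cause was not tested. The Adamts median was 0.04 with the gene length trend removed, and 0.07, 0.08 and 0.10 without Mn-N/C replicate 1, Mn-N/C replicate 3 and vehicle replicate 1. Members under 1 CPM rest on few reads, and their differences were limited by depth.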
